A study of Homo sapiens with 4 samples.

Results

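The 10 genes described here encode receptors and SMAD proteins of bone morphogenetic protein (BMP) signalling. They are a named list, matched by symbol to the gene tables of K562 cells, and each symbol matched 1 gene ID, which gives 10 of the 61498 genes in the tables. By role they are the type I receptors ACVR1 and BMPR1A, the type II receptor BMPR2, the co-receptor ENG, the receptor-regulated SMADs SMAD1, SMAD5 and SMAD9, the common SMAD4, and the inhibitory SMADs SMAD6 and SMAD7. No measured value was used to choose them, but earlier results of these data were known.

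BMP ligands are secreted proteins that bring type I and type II receptors together at the cell surface. The type II receptor then phosphorylates the type I receptor, which in turn phosphorylates SMAD1, SMAD5 and SMAD9. These proteins join SMAD4, enter the nucleus and act on target genes, among them the ID genes and SMAD6 and SMAD7, whose products feed back on the pathway. In the erythroid lineage the pathway is known for its part in early blood formation and in stress erythropoiesis.

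K562 is an established erythroleukaemia line of human origin, which hemin induces to differentiate in the erythroid direction. Poly(A) RNA was sequenced from 2 libraries of untreated K562 cells and from 2 libraries of K562 cells kept for 108 h in medium with 50 µM hemin, an iron-containing porphyrin. No other agent is named for either group, and both came from the same line. Neither a culture time nor a vehicle is stated for the untreated cells, so these cannot be told apart from hemin. The comparison addresses which genes changed in expression upon the induction of differentiation by hemin.

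The deposited expected counts summed to between 7455447 and 8241534 per library. The libraries of a condition were not copies of each other, since their mean chi-square per tested gene was 1.83 between the untreated libraries and 2.22 between the hemin-treated ones. The labels do not say that replicates were separate cultures, so every p-value measures the spread between these libraries, which may be technical. All 14 erythroid marker genes had counts, and their summed level was 6851 and 7024 TPM (the share of all transcripts that a gene holds, after correction for length) in the untreated libraries and 8912 and 8379 TPM after hemin. The endothelial, monocyte, fibroblast and lymphocyte marker lists summed to between 0.54 and 12.2 TPM in any library, with CDH5, KDR, VWF, ROBO4, CD163, S100A9, PDGFRA, POSTN, MS4A1, CD3E, CD2 and CD8A at 0 in all of them. Counts were found for 6 of 10 endothelial, 8 of 10 monocyte, 8 of 10 fibroblast and 4 of 8 lymphocyte markers. The highest, up to 121 in a library, were in the fibroblast list, where COL1A2 had the most. In bulk RNA, fewer cells that express a gene and less RNA of it per cell cannot be told apart.

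The stretches of 250 bases before the annotated start sites of 3 of the genes are given first: SMAD6 and ACVR1, because they passed the test of the comparison with hemin, and SMAD7, because it is the other inhibitory SMAD. They come from RefSeq on GRCh38.p14 and read 5′ to 3′ on the strand of the gene. The windows lie at chr15:66701986-66702235 (plus strand) for SMAD6, chr2:157876331-157876580 (minus strand) for ACVR1 and chr18:48950966-48951215 (minus strand) for SMAD7. Capitals mark matches on either strand to GTCTAGAC, the palindrome of the SMAD box, to GGCGCC, a GC-rich element known to be bound by SMAD proteins, and to a related element, GGAGCC, which reads as GGCTCC when it lies on the other strand.
SMAD6: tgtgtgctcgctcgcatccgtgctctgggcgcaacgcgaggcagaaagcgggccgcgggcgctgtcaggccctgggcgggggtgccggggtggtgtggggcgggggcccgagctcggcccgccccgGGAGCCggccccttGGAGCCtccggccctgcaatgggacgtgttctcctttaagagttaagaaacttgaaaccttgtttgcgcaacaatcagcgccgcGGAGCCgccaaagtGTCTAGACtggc
ACVR1: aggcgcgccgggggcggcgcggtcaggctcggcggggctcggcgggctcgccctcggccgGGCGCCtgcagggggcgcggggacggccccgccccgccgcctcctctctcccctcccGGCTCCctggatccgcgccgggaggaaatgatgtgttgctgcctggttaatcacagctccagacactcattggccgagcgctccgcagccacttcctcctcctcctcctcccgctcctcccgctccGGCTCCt
SMAD7: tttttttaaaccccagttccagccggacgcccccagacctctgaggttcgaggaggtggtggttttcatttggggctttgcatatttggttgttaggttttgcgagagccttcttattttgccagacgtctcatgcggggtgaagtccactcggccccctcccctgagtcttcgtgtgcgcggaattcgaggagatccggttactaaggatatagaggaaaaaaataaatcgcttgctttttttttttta

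In the SMAD6 window the palindrome GTCTAGAC stood 12 bases before the start, and GGAGCC occurred 3 times. Of all 35116 promoter windows of this length, 64 (0.182%) held GTCTAGAC, and of the 18 windows of the 10 genes only that of SMAD6 held it. The ACVR1 window held GGCGCC once, 190 bases before the start, and GGAGCC or its reverse complement at 133 and 7 bases. GGCGCC was found in 16.4% of all windows and in 5 of the 18 windows of the 10 genes. These belonged to ACVR1, BMPR2, SMAD1 and SMAD4. GGAGCC was found in 30.6% of all windows and in 9 of the 18, from 7 of the 10 genes. Windows of SMAD1 overlapped, and a GGAGCC match that they shared was counted in each. The GATA motif AGATAA, whose reverse complement reads as TTATCT, was found in 9.17% of all windows and, among the 10 genes, in a window of SMAD1. The SMAD7 window shown held none of these motifs, but a window at another SMAD7 start site held GGAGCC, 143 bases before that start. The windows at the other start sites of ACVR1 held none of the motifs. A match describes letters in a window and is not a binding measurement.

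All 10 genes had counts in every library, at levels that spanned more than an order of magnitude. SMAD4, SMAD5 and SMAD6 were the most abundant of them in untreated cells, at 28.1 ± 6.61, 26.2 ± 0.686 and 25.7 ± 2.64 TPM (SD, n = 2), and their libraries overlapped, so their order was not resolved. They lay above the median of the 14458 tested genes, which was 15.0 TPM. The type I receptor ACVR1 followed at 13.2 ± 0.700 TPM, apart from its neighbours in both libraries. BMPR1A, SMAD7 and BMPR2 stood at 8.43 ± 0.184, 7.78 ± 1.59 and 6.93 ± 1.92 TPM and were not separated from one another. SMAD1 lay below them at 3.52 ± 0.0354 TPM, and SMAD9 and ENG were last at 1.32 ± 0.170 and 1.19 ± 0.0778 TPM, again overlapping.

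After hemin the first 4 places were held by the same genes in the same order, with SMAD4 at 32.4 ± 2.31, SMAD5 at 25.1 ± 2.97, SMAD6 at 18.1 ± 2.42 and ACVR1 at 9.39 ± 1.10 TPM (SD, n = 2), now without overlap between neighbours. BMPR1A (6.39 ± 1.85 TPM), SMAD1 (6.18 ± 1.83 TPM) and BMPR2 (5.74 ± 0.0071 TPM) overlapped. SMAD7 was below these at 4.65 ± 0.375 TPM, and ENG and SMAD9 were last at 0.940 ± 0.0424 and 0.670 ± 0.0849 TPM. TPM rest on the transcript length that RSEM estimates per gene and library, and the longest estimate exceeded the shortest by 1.03-fold for SMAD6 and 1.11-fold for ACVR1, but by 1.76-fold for SMAD1 and 2.00-fold for ENG. RSEM's posterior mean TPM for SMAD1 was 9.01 and 9.0 in the untreated libraries and 12.7 and 9.40 after hemin, well above the TPM values, and for 14 of the 20 levels the posterior mean differed from the TPM mean by more than 1 SD.

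**Figure D1:**
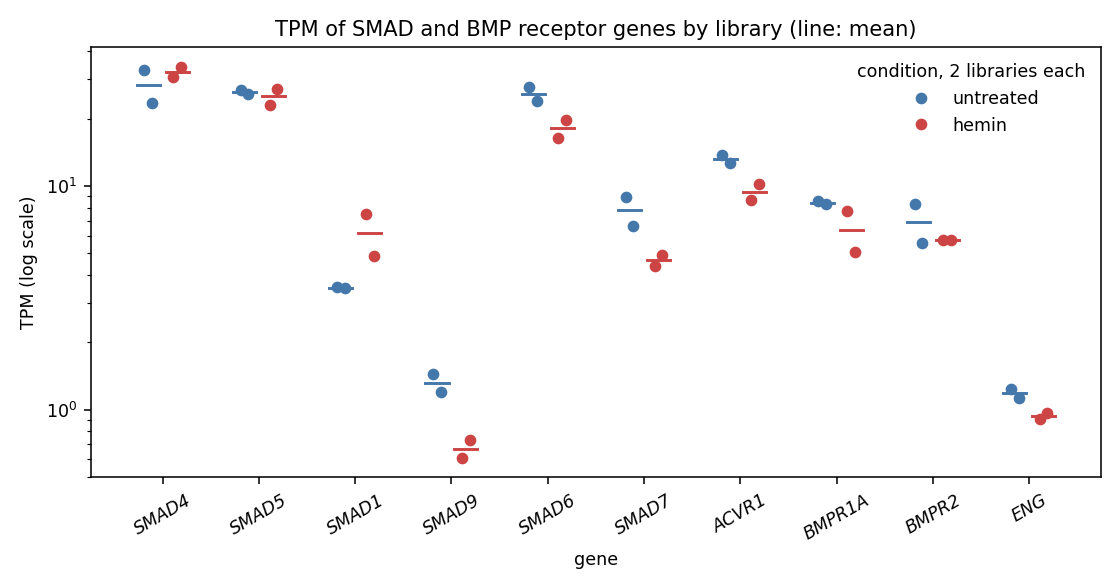
TPM of each of the 10 genes (log axis) in the 2 untreated (blue) and 2 hemin-treated (red) libraries, with a line at the mean of each condition. SMAD4, SMAD5 and SMAD6 are highest in both conditions, the hemin points of SMAD6, SMAD7, SMAD9, ACVR1, BMPR1A and ENG lie below their untreated points, and those of SMAD1 lie above.

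For the comparison of conditions, expected counts were rounded, scaled by the TMM method to CPM (counts scaled to the library total and not divided by length) and fitted by the quasi-likelihood method of edgeR, with p-values adjusted (Benjamini-Hochberg) over all 14458 genes that passed the filter on low counts. Of the 10 genes, 9 passed the filter. After hemin ACVR1 fell by 27.1% and SMAD6 fell by 28.7%, whereas no gene of the list rose or reached a 2-fold change. The count of 2 of 9 lower stands beside 7.14% of all tested genes called lower, and the count of 0 of 9 higher beside 7.00% called higher. At an unadjusted p under 0.05, 6 of the 9 were lower (14.6% of all tested genes) and 0 were higher (14.8%), and DESeq2 called 0 of the 9 in either direction. The count of 2 lower became 0 without untreated replicate 1 and 0 without untreated replicate 2, and without hemin replicate 1 it was 1, which was SMAD7.

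The scaled counts of the conditions did not overlap for 8 of the 9 genes. They were lower after hemin in 7 (29.3% of all tested genes) and higher in 1, SMAD1 (28.1%), and only SMAD4 overlapped. The log2 fold change was negative in 7 of the 9 and its median was -0.38, against -0.0048 (50.9% negative) over all tested genes.

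**Figure D2:**
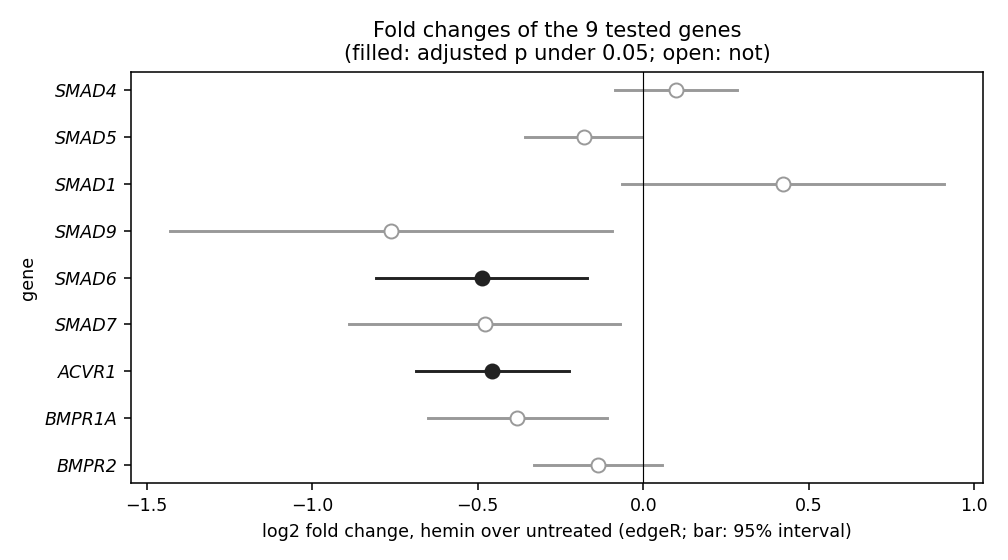
Log2 fold change (hemin over untreated) of the 9 tested genes from edgeR, with 95% intervals as bars. Filled points (ACVR1 at -0.46 and SMAD6 at -0.49) had an adjusted p under 0.05 and open points did not; the intervals of SMAD4, SMAD1 and BMPR2 cross 0.

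Among the receptors, ACVR1 (ENSG00000115170, chr2:157736251-157876330, minus strand), a type I receptor for BMPs also known as ALK2, gave the lowest p of the list. It had 24.7 and 25.0 CPM in the untreated libraries and 17.4 and 18.7 CPM after hemin, from 195, 187, 129 and 151 counts. Both hemin-treated libraries lay below both untreated ones, by more than the spread within either pair. Its log2 fold change was -0.46 ± 0.10 (SE; 95% interval -0.69 to -0.23; edgeR adjusted p = 0.0191), a decrease to 0.729 of the untreated level. The call was lost in 3 of the 4 fits without a single library: the adjusted p was 0.0688 without untreated replicate 1, 0.0804 without untreated replicate 2 and 0.0702 without hemin replicate 1, with log2 fold changes between -0.47 and -0.40. Without hemin replicate 2 it was kept (-0.51, adjusted p = 0.0304).

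BMPR1A (ENSG00000107779, chr10:86756596-86932825, plus strand), the type I receptor also known as ALK3, had 19.7 and 22.7 CPM without hemin and 15.8 and 16.7 CPM with it. The conditions did not overlap. Its log2 fold change was -0.38 ± 0.12 (SE; 95% interval -0.65 to -0.11), which did not pass the threshold (edgeR adjusted p = 0.0646). With scaling by library size alone, which moved the median log2 fold change of all genes to -0.043, the adjusted p was 0.0438, the only one of 13 alternatives past the threshold. Over these the adjusted p reached 0.428 (by limma on TPM), and the log2 fold change was closest to 0 without untreated replicate 2, at -0.27.

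BMPR2 (ENSG00000204217, chr2:202376327-202567751, plus strand), the type II receptor dedicated to BMPs, had 37.3 and 37.9 CPM in untreated cells and 36.0 and 32.5 CPM after hemin. The libraries kept apart narrowly. Its log2 fold change of -0.14 ± 0.09 (SE; 95% interval -0.33 to 0.06) did not pass the threshold (edgeR adjusted p = 0.332), and the interval leaves room for a decrease to 0.795 of the untreated level. The summed level of the 3 receptors was 30.6 and 26.6 TPM untreated and 22.0 and 21.0 TPM after hemin, a ratio of means of 0.753 on the TPM scale and 0.826 on the scaled count scale.

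ENG (ENSG00000106991, chr9:127815013-127854658, minus strand), or endoglin, is a co-receptor for BMP9 and BMP10 that is best known from endothelial cells. It had 8.89 and 6.45 expected counts in untreated cells and 6.61 and 12.4 after hemin, too few to pass the filter. The libraries overlapped. In TPM both hemin-treated libraries (0.910 and 0.970) lay below the untreated ones (1.24 and 1.13), and RSEM's length for ENG was 2198 bases in hemin replicate 2 and 1100 to 1389 bases in the others. The pooled counts gave a ratio of 1.23 after hemin with an exact 95% interval of 0.591 to 2.59, which covers counting error only, so these counts could not resolve a difference in either direction. A long noncoding gene on the other strand, ENSG00000225032, shares 313 exonic bases (8.15%) with ENG and had 29.1, 13.6, 9.39 and 14.6 counts, and the library kit is not stated to keep strand, so reads in the shared bases cannot be told apart. RSEM's posterior SD reached 13.6% of the count for ENG, against at most 3.14% for the other members.

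None of the 3 receptor-regulated SMADs passed the test (edgeR adjusted p of 0.121 to 0.234). SMAD5 (ENSG00000113658, chr5:136132845-136188747, plus strand), the most abundant of them, had 70.2 and 75.9 CPM untreated and 59.9 and 68.7 CPM with hemin, without overlap. Its log2 fold change was -0.18 ± 0.08 (SE; 95% interval -0.36 to -0.0026; edgeR adjusted p = 0.164). SMAD5 made up most of the receptor-regulated SMAD level in every library, at 23.0 to 27.2 TPM.

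SMAD1 (ENSG00000170365, chr4:145481194-145559176, plus strand) was the only one of the 9 whose scaled counts were higher in both hemin-treated libraries. It had 38 and 42 counts untreated and 50 and 58 after hemin, or 4.81, 5.61, 6.74 and 7.19 CPM. A log2 fold change of 0.42 ± 0.22 (SE; 95% interval -0.06 to 0.91) did not pass the threshold (edgeR adjusted p = 0.234). In TPM the library of hemin replicate 1 stood at 7.47 and the others at 3.49 to 4.88, and the length RSEM gave SMAD1 was 1288 bases in that library and 1960 to 2271 bases in the others.

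SMAD9 (ENSG00000120693, chr13:36844831-36920887, minus strand), which is also known as SMAD8, had the largest fold change by size and the fewest counts of the 9 tested members. The counts were 40 and 31.2 untreated and 18 and 24 after hemin, or 5.06, 4.14, 2.43 and 2.98 CPM. Both hemin-treated libraries lay below both untreated ones. The log2 fold change of -0.76 ± 0.30 (SE) had a wide 95% interval, from -1.43 to -0.10, and did not pass the threshold (edgeR adjusted p = 0.121).

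SMAD4 (ENSG00000141646, chr18:51028528-51085045, plus strand), the partner shared by BMP and TGF-β signalling, was the only tested member whose scaled counts overlapped. It had 62.7 and 53.6 CPM untreated and 62.6 and 62.1 CPM after hemin. Untreated replicate 2 was lowest and the other 3 libraries lay close together. On the log2 scale the fold change was 0.10 ± 0.08 (SE; 95% interval -0.09 to 0.28; edgeR adjusted p = 0.476) and -0.0057 without untreated replicate 2.

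Both inhibitory SMADs had lower scaled counts in both hemin-treated libraries, and SMAD6 passed the test. SMAD6 (ENSG00000137834, chr15:66702236-66782849, plus strand), which acts mainly on BMP type I receptors and is itself a BMP target, had 171 and 140 counts in untreated cells and 95 and 128 after hemin. Scaled, these were 21.6, 18.7, 12.8 and 15.9 CPM, and the conditions did not overlap. SMAD6 fell to 0.713 of the untreated level, a log2 fold change of -0.49 ± 0.14 (SE; 95% interval -0.81 to -0.17; edgeR adjusted p = 0.0492).

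The call of SMAD6 was close to the threshold. The adjusted p was 0.223 without untreated replicate 1, 0.0737 without untreated replicate 2, 0.202 without hemin replicate 1 and 0.0213 without hemin replicate 2, and over these fits the log2 fold change ran from -0.66 to -0.34. In the fit with the replicate number as a block, the adjusted p of SMAD6 was 0.0745 and that of ACVR1 was 0.0311.

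SMAD7 (ENSG00000101665, chr18:48919853-48950965, minus strand), which acts on TGF-β and BMP receptors alike, had 94 and 84 counts untreated and 70 and 58 after hemin. Scaled, these were 11.9, 11.2, 9.44 and 7.19 CPM, without overlap. The log2 fold change was -0.48 ± 0.18 (SE; 95% interval -0.89 to -0.07), nearly that of SMAD6, but the adjusted p was 0.112 by edgeR. Without hemin replicate 1 it was 0.0473, at a log2 fold change of -0.68, and without hemin replicate 2 it was 0.441, at -0.29. Over all 13 alternatives the adjusted p ran from 0.0473 to 0.441.

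Per length, the inhibitory SMADs together summed to 36.5 and 30.5 TPM in untreated cells and to 20.8 and 24.7 TPM after hemin. The receptor-regulated SMADs summed to 31.7 and 30.4 TPM untreated and to 31.1 and 32.8 TPM after hemin, and the ratio of their means turned with the scale, at 1.03 on TPM and 0.900 on scaled counts. For the inhibitory SMADs it was 0.679 and 0.721. Inhibitory transcripts thus made up 36.1% of the summed level of the 6 SMADs in both untreated libraries and 25.1% and 27.0% in the hemin-treated ones. The ratio of inhibitory to receptor-regulated level was 1.15 and 1.00 untreated and 0.667 and 0.752 after hemin. On expected counts, which are not divided by length, the same ratio was 0.419 and 0.350 untreated and 0.322 and 0.293 after hemin, so the conditions stayed apart on both scales with a smaller gap on counts. These sums were not tested. They were not formed on RSEM's posterior mean TPM, which differed most plainly for SMAD1, a receptor-regulated SMAD. Its posterior means were 9.01 and 9.0 untreated, against 3.54 and 3.49 TPM. After hemin they were 12.7 and 9.40, against 7.47 and 4.88 TPM. The size of the TPM shares and ratios therefore depends on that estimate.

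**Figure D3:**
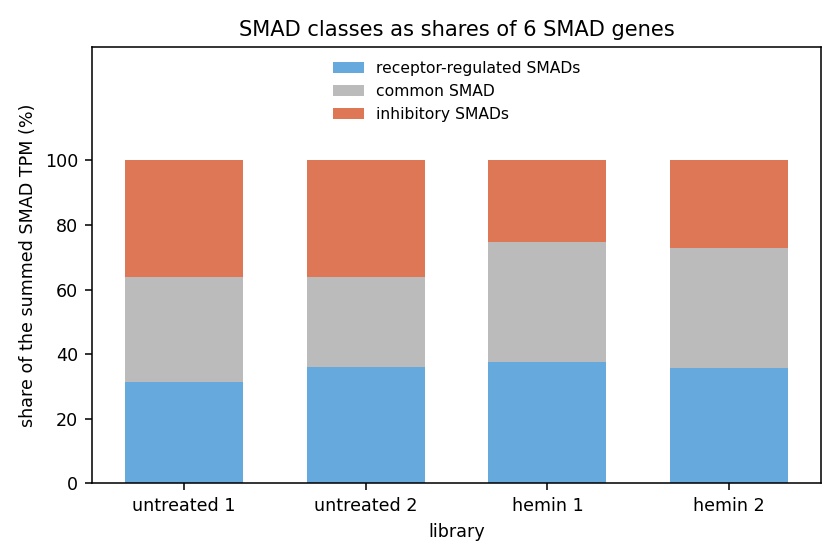
Shares of the summed TPM of the 6 SMADs held by the receptor-regulated, common and inhibitory SMADs in each library, in percent. The inhibitory share (top) is 36.1% in both untreated libraries and 25.1% and 27.0% in the hemin-treated ones.

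Among genes of like level, within 1 unit of mean log2 CPM, the 3 whose values over the 4 libraries were most like those of SMAD6 were WIPF3, SLC4A11 and SYDE2, with root mean square differences of 0.0163, 0.0222 and 0.0355 on centred log2 CPM among 4301 genes. For ACVR1 they were PCED1B, RBMS2 and ENSG00000236393, at 0.0108, 0.0208 and 0.0232 among 4625 genes. With 4 libraries such likeness is a description of few points that share depth and scaling.

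The wider pathway was followed in 161 other genes in 11 lists, all of which matched a symbol. Of these, 20 were at 0 in every library and 103 passed the filter, of which 13 were called higher (7.00% of all tested genes were) and 15 lower (7.14%), at a median log2 fold change of -0.011, against -0.0048 over all tested genes. Without untreated replicate 1 these counts were 7 higher and 7 lower, and without untreated replicate 2 they were 8 and 11.

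The BMP ligands were sparse. Of 17 BMP and GDF ligands, 6 had no count in any library and only 3 passed the filter, with 0 called in either direction by edgeR (2 lower and 0 higher at an unadjusted p under 0.05, and a median of -0.55). BMP8A gave the largest value, -1.15 ± 0.40 (SE; edgeR adjusted p = 0.0883), at 1.12 and 0.880 TPM untreated and 0.260 and 0.60 TPM after hemin. Of 16 activin, TGF-β and other ligands, 8 were tested. By edgeR 3 fell (7.14% of all tested genes did) and 0 rose (7.00% did). The log2 fold change was positive in 2 of the 8, and the median was -0.11. TGFB1, the main TGF-β ligand of blood cells, fell by 0.43 on the log2 scale (138 to 109 TPM; edgeR adjusted p = 0.000488), GDF15, a stress-induced ligand, fell by 0.48 (551 to 391 TPM; adjusted p = 0.000322), and INHBE, an inhibin β chain, fell by 0.51 (27.5 to 19.9 TPM; adjusted p = 0.00538).

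Of 9 other type I and type II receptors, 6 were tested. ACVR1C, the type I receptor also known as ALK7, fell by 1.35 on the log2 scale from 57 and 47 counts to 17 and 24 (edgeR adjusted p = 0.0109), and TGFBR1, the type I receptor for TGF-β, rose by 0.31 from 64.9 and 56.4 TPM to 78.2 and 72.2 TPM (edgeR adjusted p = 0.00383). In every library its level per length exceeded that of ACVR1. Of the receptors too low to test, TGFBR2 had 0 and 1 counts untreated and 0 and 1 after hemin. Of 12 other co-receptors, 7 were tested and TGFBR3, or betaglycan, fell by 0.24 (adjusted p = 0.0133). Of 21 secreted antagonists and modulators, 7 were tested. ERFE encodes the erythroid hormone erythroferrone, which binds BMPs and lowers hepcidin. ERFE fell by 0.84 from 76 and 81 counts to 39 and 49 (edgeR adjusted p = 0.0202). CRIM1, a membrane protein that binds BMPs, rose by 0.27 (edgeR adjusted p = 0.0404). By DESeq2 the calls of ERFE and CRIM1 were lost (adjusted p = 0.1058 and 0.1498), and those of ACVR1C, TGFBR1 and TGFBR3 were kept.

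Inside the cell, the TGF-β SMADs and their anchors were all tested, 5 of 5. SMAD3, a receptor-regulated SMAD of the TGF-β branch, fell by 0.38 on the log2 scale, from 28.9 and 32.8 TPM to 20.7 and 21.8 TPM (edgeR adjusted p = 0.00513). All 18 ubiquitin ligases and deubiquitinases of SMADs were tested. SMURF2, a ligase that SMAD7 recruits to receptors, fell by 0.45 (edgeR adjusted p = 0.0345). WWP2, USP11 and CUL1 rose by 0.47, 0.27 and 0.28 (edgeR adjusted p = 0.00459, 0.0434 and 0.00889). By DESeq2 the calls of SMURF2 and USP11 were lost (adjusted p = 0.222 and 0.225), and those of WWP2 and CUL1 were kept. Of 13 phosphatases and linker kinases, CTDSP1, a phosphatase of SMADs, rose by 0.39 (edgeR adjusted p = 0.00538). TAB2 fell by 0.26 (edgeR adjusted p = 0.0219). DESeq2 kept the call of CTDSP1 but not that of TAB2 (adjusted p = 0.128).

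Nuclear partners were the list with the most increases. Of 20, 18 were tested, as many as of the ubiquitin ligases and deubiquitinases. By edgeR 6 rose (7.00% of all tested genes did) and 1 fell (7.14% did), at a median of 0.12. ZEB2, a repressor that binds SMADs, rose by 0.60 from 38.2 and 45.6 TPM to 59.2 and 63.5 TPM (edgeR adjusted p = 0.000237), and RUNX1, a blood transcription factor that partners SMADs, rose by 0.55 (adjusted p = 0.00100). The acetyltransferases EP300 and CREBBP rose by 0.37 and 0.31, and SKI and YY1 by 0.27 and 0.25 (edgeR adjusted p between 0.00333 and 0.0273). By DESeq2 CREBBP did not pass (adjusted p = 0.0993), whereas EP300, SKI and YY1 did. SKIL, a corepressor and TGF-β target close to SKI, fell by 0.61 from 203 and 167 counts to 111 and 133 (edgeR adjusted p = 0.0111).

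Of 17 textbook BMP target genes other than SMAD6, SMAD7 and SMAD9, 10 were tested. By edgeR 2 fell (7.14% of all tested genes did) and 0 rose (7.00% did). At an unadjusted p under 0.05, 3 were lower (14.6% of all tested genes) and 0 higher (14.8%). The 2 that fell were ID1 and ID3, which the authors had already reported as lower in these libraries. Their count is thus not an independent finding about BMP targets. The log2 fold change was negative in 9 of the 10, BAMBI being the exception at 0.17, and the median was -0.38. The list was written with earlier results of these data known, so this count and median are not independent of them. ID1, an inhibitor of basic helix-loop-helix factors, had 79 and 61 counts untreated and 29 in each hemin-treated library (log2 fold change -1.27 ± 0.23, SE; edgeR adjusted p = 0.00702). Its relative ID3 had 42 counts in each untreated library and 1 in each after hemin (edgeR adjusted p = 0.000388). ID2 had 38 in each untreated library and 28 and 24 after hemin, which did not pass the threshold (-0.55 ± 0.27, SE; edgeR adjusted p = 0.212).

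Of 15 textbook TGF-β target genes, 10 were tested. By edgeR 4 fell (7.14% of all tested genes did) and 1 rose (7.00% did), at a median of -0.35. The CDK inhibitor gene CDKN1A fell by 1.09 on the log2 scale (edgeR adjusted p = 0.0131), the early response gene KLF10 by 0.97 (adjusted p = 0.000273), TSC22D1 by 1.07 (adjusted p = 0.000452), and SKIL as given above.

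**Figure D4:**
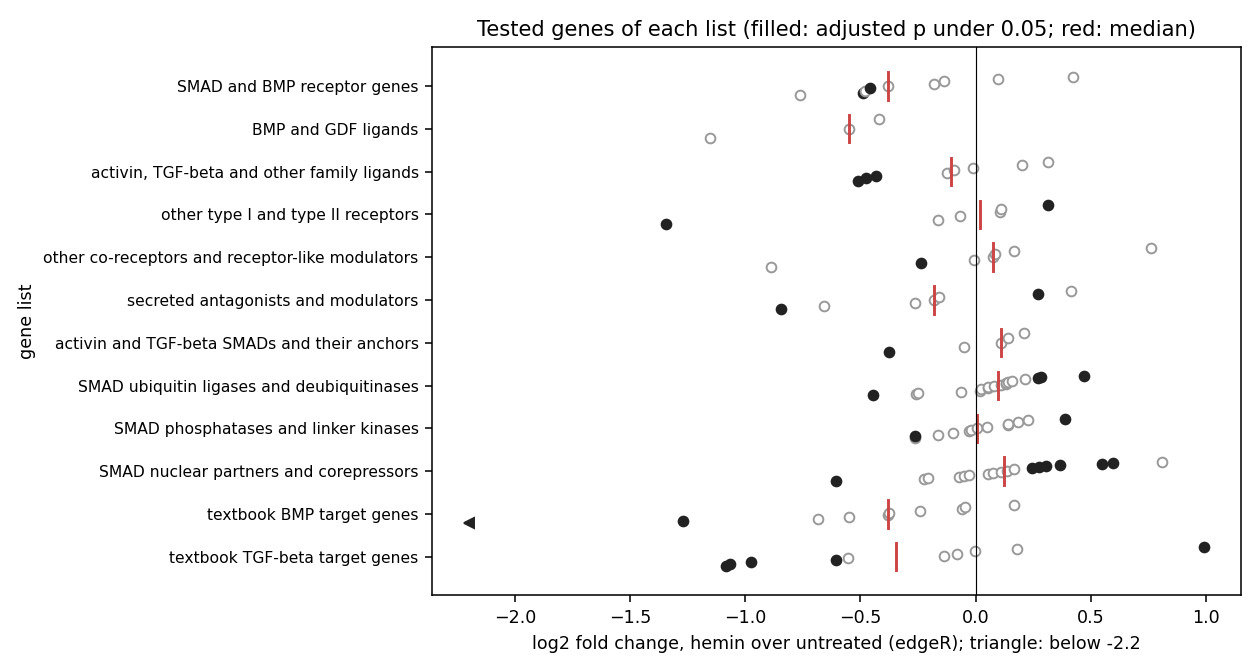
Log2 fold change (hemin over untreated, edgeR) of each tested gene by list, with filled points for an adjusted p under 0.05, a red line at each list's median and a triangle for ID3, which lies below the axis. The median is -0.38 for the 9 tested receptor and SMAD genes, -0.38 and -0.35 for the BMP and TGF-β target lists, and 0.12 for the nuclear partners.

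**Figure D5:**
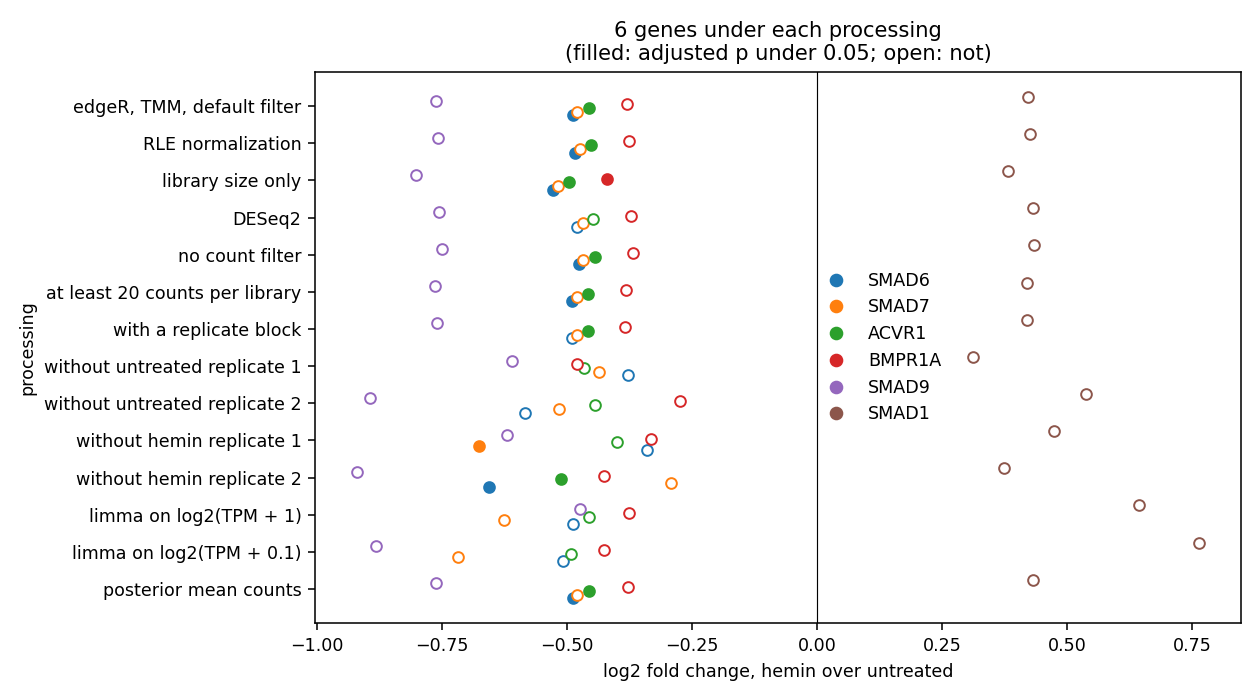
Log2 fold change (hemin over untreated) of 6 of the genes under each processing, filled where the adjusted p was under 0.05. SMAD6, SMAD7, ACVR1, BMPR1A and SMAD9 are negative and SMAD1 is positive under each of the 14 settings, while the filled points of ACVR1 and SMAD6 come and go.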

How the data were processed

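The authors trimmed single reads of 50 bases with Trimmomatic 0.39 and ran RSEM 1.3.1 with STAR 2.7.5c on an Ensembl annotation of GRCh38, for each replicate on its own. The expected counts were deposited as RSEM wrote them, without normalization, and the deposited posterior mean counts come from its sampling. The deposited TPM are divided by effective length. The authors' posterior SDs of the count and bounds of the TPM interval are values of at least 0 (a signal in unit). The deposited lengths are in bases. The TPM tables hold the same values, and FPKM were not used.

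Here counts were rounded. The filterByExpr function kept 14458 of 61498 genes, and edgeR 4.0.16 in R 4.3.3 was used with TMM factors (quasi-likelihood, condition only, Benjamini-Hochberg, threshold 0.05). Gene coordinates and overlaps came from GENCODE 44 and promoter windows from RefSeq. Named were all 10 genes and each other pathway gene past the threshold (or the largest change of a list with none). Also named were ID1, ID2, ID3, TGFBR2 and the 3 genes nearest in pattern to each called member. Genes and lists were written from general knowledge, with earlier results of these data known. The alternatives tried were RLE scaling, scaling by library size, DESeq2 1.42.0, omission of the filter, a minimum of 20 counts within a condition, a block for the replicate number, omission of single libraries, limma 3.58.1 on log2 TPM with a pseudocount of 1 or 0.1, posterior means for counts and levels, and sums of scaled counts. Intervals on pooled counts cover counting error only. The authors' contact data were not analysed here. The values of 1 called pathway gene are not reported here.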

Additional observations from a re-analysis of the deposited data

How the results depend on the processing

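Of the receptor and SMAD genes, 2 were called lower by edgeR. DESeq2 and limma on log2(TPM + 1) and log2(TPM + 0.1) called 0, the replicate block 1, and the fits without a single library 0 to 2. The count of 0 called higher was the same throughout. Over 13 alternatives ACVR1 kept its call in 7 and SMAD6 in 6, and the log2 fold changes ran from -0.51 to -0.40 and from -0.66 to -0.34. SMAD4 ran from -0.0057 (without untreated replicate 2) to 0.22 in the fits without a single library, and no other member changed sign. Of the other pathway genes, 13 were called higher and 15 lower. The limma fits called 0 higher and 2 lower, and leaving out a library gave 7 to 12 higher and 7 to 14 lower. Of 389 values of the named pathway genes under alternatives, 0 changed sign, 94 lost the call and 4 gained it.

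Over all genes, 1012 were called higher and 1033 lower. DESeq2 called 602 and 484, limma 14 and 33 with a pseudocount of 1 and 15 and 34 with 0.1, and leaving out a library 469 to 934 and 512 to 884, lowest in both directions without untreated replicate 1. With no filter edgeR called 1464 and 1321, and with library size only 729 and 1358. A library left alone was assumed to vary like the other condition. The replicate block gave 855 and 886 calls. The labels share only a number, and same-numbered libraries deviated with a correlation of 0.005 over all tested genes, so the block was not read as a pairing. The cause of these shifts was not tested. SMAD1, SMAD9 and ENG had under 60 counts in every library.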
